A study of Mus musculus with 6 samples.

Results

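Cyclins are regulatory proteins that bind and activate cyclin-dependent kinases (CDKs), and 41 mouse genes of these families are described here in THY1-positive spermatogonia with and without Ddx20. The genes are a list of symbols matched to the Ensembl identifiers of the count table through GENCODE M21. All 41 had a row among the 22579 genes of the table. The list holds 15 genes of the cell cycle, 13 genes of the transcriptional kinases and 13 other members. The cell cycle genes are the A-, B-, D- and E-type cyclins, Ccnf, Cdk1, Cdk2, Cdk4 and Cdk6. The transcriptional genes are Ccnc, Ccnh, Ccnk, Ccnl1, Ccnl2, Ccnt1, Ccnt2, Cdk7, Cdk8, Cdk9, Cdk10, Cdk12 and Cdk13.

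In the cell cycle, D-type cyclins act with CDK4 and CDK6 in G1, E- and A-type cyclins with CDK2 at the start of and during DNA replication, and A- and B-type cyclins with CDK1 at entry into mitosis. The transcriptional cyclins and kinases act instead on RNA polymerase II and its cofactors, as parts of TFIIH (CDK7 with cyclin H), of the Mediator complex (CDK8 with cyclin C), of the elongation factor P-TEFb (CDK9 with a T-type cyclin) and of the cyclin K complexes with CDK12 or CDK13. Mitotic cyclins and CDK1 follow proliferation at the RNA level, while the RNA of most transcriptional kinases does not follow the cell cycle. Spermatogonia after birth are a dividing population in which cyclin D2 is a known regulator.

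The study compared 3 control samples with 3 samples labelled Ddx20 knockout, each of about 1000 THY1-positive spermatogonia at day 4. DDX20 (Gemin3) is an RNA helicase that works with SMN in building the small nuclear ribonucleoproteins of the spliceosome. The controls are littermates, and the knockout is also labelled cKO, but the labels name no Cre driver, deleted exon, strain or number of animals per sample. Oligo-dT primed RNA was amplified by the SMART-seq2 method, which carries no molecular identifiers. Nothing says which library came from which animal, so the p-values reflect how much the samples vary among themselves, and that variation may be technical.

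Total counts ran from 8428871 to 11893287 in controls and from 11656130 to 12497967 in knockouts. Mitochondrially encoded genes took 14.01% to 16.9% of counts in controls and 19.8% to 20.1% in knockouts, and 16822 to 18138 against 19127 to 19447 genes had a read, so both measures separate the groups. Ddx20 stood at 47.0 ± 14.8 CPM (counts relative to library size, SD, n = 3) in controls and 12.6 ± 2.35 CPM in knockouts (log2 fold change −1.89, edgeR adjusted p 0.0118). Knockout 1 and knockout 2 were the closest libraries, with a mean chi-square per gene of 1.78 where sampling noise gives 1 and the other pairs gave 12.5 to 139. Values with that pair counted as 1 library are therefore given beside the main ones. By the same measure control 2 was about as close to knockouts 2 and 1 (35.8 and 36.5) as to control 3 (35.9), and further from control 1 (76.6). The germ cell marker Ddx4 was present in every library (365 ± 43.7 and 465 ± 18.7 CPM, not called), and Thy1 itself was low (9.01 ± 4.17 and 6.48 ± 0.800 CPM, not called). Of 12 spermatogonial markers 0 rose and 5 fell by edgeR: Stra8 (log2 fold change −1.22), Kit (−1.02), Gfra1 (−0.69), Ret (−0.67) and Etv5 (−0.65). Zbtb16, Sall4 and Id4 were not called, but every knockout lay below every control. Every knockout was higher for Ddx4, while Dazl, Thy1 and Uchl1 overlapped. The summed level of the 12 overlapped, at 4020 to 4832 CPM in controls and 4288 to 4691 CPM in knockouts. Most of that sum was Dazl (2767 ± 401 and 3132 ± 169 CPM), so it says little about the other markers. The summed level of 7 Sertoli cell markers ran from 46.6 to 61.2 CPM in controls and from 112 to 133 CPM in knockouts. Its largest part was Clu, at 30.6 ± 6.45 and 90.3 ± 14.9 CPM. Clu and Cldn11 were called higher, while Sox9, Amh, Wt1, Gata4 and Amhr2 overlapped. For 6 peritubular myoid markers the sum was 64.5 to 80.7 against 163 to 233 CPM, most of it Acta2 (60.8 ± 11.1 and 182 ± 39.2 CPM). Acta2 and Actg2 were called higher and Des was higher in every knockout, while Myh11, Cnn1 and Tagln overlapped. For 7 T lymphocyte markers the sum was 25.6 to 32.9 against 52.6 to 70.9 CPM. Cd3g and Lck were called higher and Cd3e was higher in every knockout, while Cd3d, Cd2, Cd8a and Cd4 overlapped. For 5 endothelial markers the sum was 30.8 to 39.1 against 42.1 to 53.6 CPM. Emcn (3.17 ± 2.37 and 10.3 ± 1.83 CPM) and Kdr were higher in every knockout but not called by edgeR, while Pecam1, Cdh5 and Tek overlapped. The sums of 5 Leydig cell and 5 macrophage markers overlapped (20.3 to 60.3 and 43.8 to 61.9 CPM, 199.9 to 273 and 236 to 290.0 CPM). Among them the Leydig marker Cyp17a1 was higher in every knockout (3.06 ± 1.51 and 8.91 ± 0.755 CPM), and the others overlapped. The adjusted p of Cyp17a1 was 0.0722 by edgeR, 0.0196 by DESeq2 and 0.0214 by limma-voom. No marker of these lists was at 0 in a whole group. The part of these markers and library measures in the values below was not tested, and in such bulk samples fewer cells of a type and less RNA per cell cannot be told apart.

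The most abundant members, per kilobase (kb) of exon, were the mitotic B-type cyclins and the G1 kinase gene Cdk4. In controls Ccnb2 stood at 152 ± 25.9 CPM per kb, Ccnb1 at 118 ± 15.6 and Cdk4 at 83.8 ± 6.36 (SD, n = 3). In knockouts Cdk4 was at 99.2 ± 1.90 CPM per kb, Ccnb1 at 93.7 ± 27.1 and Ccnb2 at 93.0 ± 5.43, so these 3 did not differ beyond their spread. Ccnh, the cyclin of the CDK7 kinase, was the most abundant transcriptional member, at 63.0 ± 6.27 CPM per kb in controls and 78.3 ± 7.12 in knockouts. The germ cell and meiotic cyclins Ccna1 and Ccnb3 were near the bottom of the order, with 3 to 14 and 30 to 77 reads per library. Ccnj was the lowest, with 1 to 11 reads per library, and was the sole member that did not pass the filter on low counts.

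Of 40 tested members, 3 passed an adjusted p of 0.05 in edgeR's quasi-likelihood test, and all 3 fell in knockouts. They were Ccnb2, a mitotic cyclin, Cdk8, the kinase of the Mediator complex, and Ccng2, an atypical cyclin known for its link to cell cycle arrest. No member rose by edgeR, where 4 had an unadjusted p under 0.05 in that direction and DESeq2 called 2 higher. The 3 called members are 7.5% of those tested, beside 4.83% of the 14766 genes tested, and 2.8% of all genes were called lower and 2.03% higher. With so few calls, nothing is read from this share. The edgeR calls were lost whenever fewer knockout libraries were counted. With knockouts 1 and 2 as 1 library edgeR called 0 members (10 at an unadjusted p under 0.05) and 0.00649% of all genes. In that setting DESeq2 called 3 members (3.04% of all genes) and limma-voom 2 (2.65%). With any 1 knockout left out, knockout 3 included, edgeR also called 0 members, and 3 to 10 genes in all. With all 6 libraries DESeq2 called 6 members (11.1% of all genes) and limma-voom 10 (18.7%). Scaling by library size alone gave 7 members in edgeR (9.33% of all genes) and the replicate number as a block 4 (4.63%).

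Ccnb2 (chr9:70407692-70421547, minus strand, GRCm38) encodes cyclin B2, which activates CDK1 at entry into mitosis. Its level was 194, 232 and 273 CPM in controls 1 to 3 and 135, 140 and 152 CPM in knockouts 1 to 3. Every knockout lay below every control, and the controls were spread more widely. The log2 fold change was −0.71 ± 0.17 (SE, edgeR adjusted p 0.0400, n = 3 a group), which is just inside the threshold. Without control 2 or control 3 the adjusted p was 0.0858 or 0.0681, and without 1 knockout it was 0.101 to 0.225. With knockouts 1 and 2 as 1 library it was 0.219 by edgeR, 0.0395 by DESeq2 and 0.0402 by limma-voom.

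Cdk8 (chr5:146231230-146302874, plus strand) encodes the kinase that, with cyclin C, forms the detachable module of Mediator. Its level was 79.2, 49.1 and 46.1 CPM in controls and 27.7, 27.3 and 32.8 CPM in knockouts. The groups did not overlap, and control 1 stood well above the other controls. Cdk8 fell by 0.99 ± 0.23 on the log2 scale (SE, edgeR adjusted p 0.0383). The adjusted p was above 0.05 without control 2 (0.0647), without any 1 knockout (0.0920 to 0.176) and after removal of each library's trend with exon length and GC content (0.0521). With knockouts 1 and 2 as 1 library it was 0.180 by edgeR, 0.0415 by DESeq2 and 0.0699 by limma-voom.

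Ccng2 (chr5:93267257-93276231, plus strand) showed the largest difference of the called members. Its level was 31.4, 24.2 and 42.2 CPM in controls and 9.57, 9.52 and 11.2 CPM in knockouts, so the highest knockout lay below the lowest control. The log2 fold change was −1.69 ± 0.25 (SE, edgeR adjusted p 0.0119), and the call held when any 1 control was left out. Without 1 knockout the adjusted p was 0.0620 to 0.0805. With knockouts 1 and 2 as 1 library it was 0.0828 by edgeR, 0.000796 by DESeq2 and 0.0125 by limma-voom. Ccng1, which encodes the related p53 target cyclin G1, stood on the other side: 40.98, 63.0 and 64.5 CPM in controls and 92.2, 91.1 and 78.4 CPM in knockouts. Its log2 fold change of 0.63 ± 0.19 missed the edgeR threshold (adjusted p 0.0826), while DESeq2 (0.0357) and limma-voom (0.00864) passed theirs. With knockouts 1 and 2 as 1 library Ccng1 was called by none of edgeR, DESeq2 and limma-voom.

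**Figure D1:**
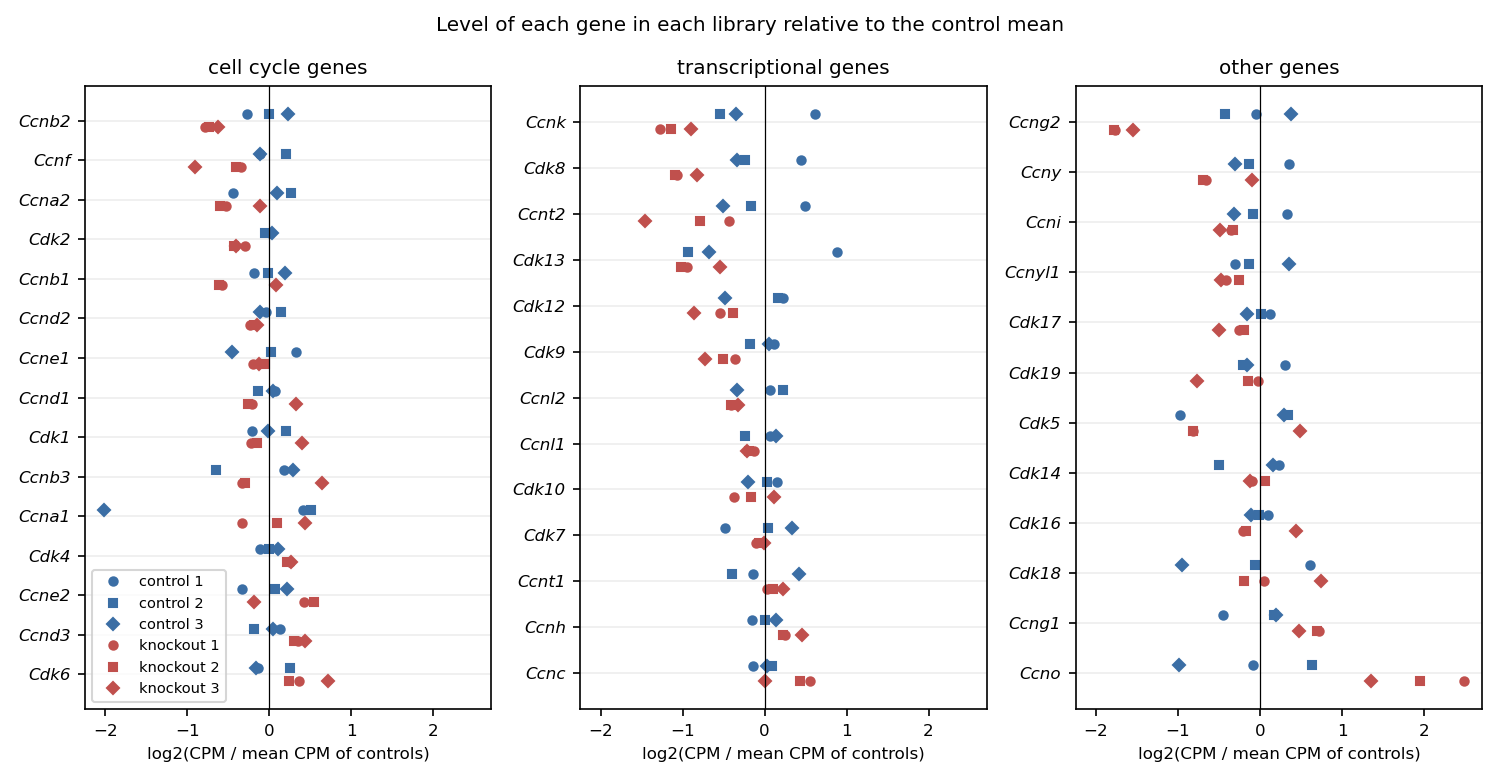
CPM of each tested member in each library over the mean CPM of the 3 controls, on a log2 axis, by class; colour is the group and marker shape the library. For Ccnb2, Cdk8 and Ccng2 every knockout lies left of every control.

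By groups alone, 10 members had every knockout below every control, 5 had every knockout above, and 25 overlapped. Over all genes 32.6% did not overlap (15.8% lower, 16.8% higher). An unadjusted p under 0.05 was reached by 13 members, 9 lower and 4 higher, beside 24.1% of all genes. Of the 40 tested members 26 had a log2 fold change below 0, and their median was −0.19, beside 0.01 for all genes. Scaling by library size alone in place of TMM moved the median of all genes to −0.26 and the share of lower genes among all calls from 57.9% to 83.6%, so the differences below are relative to the typical gene.

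**Figure D2:**
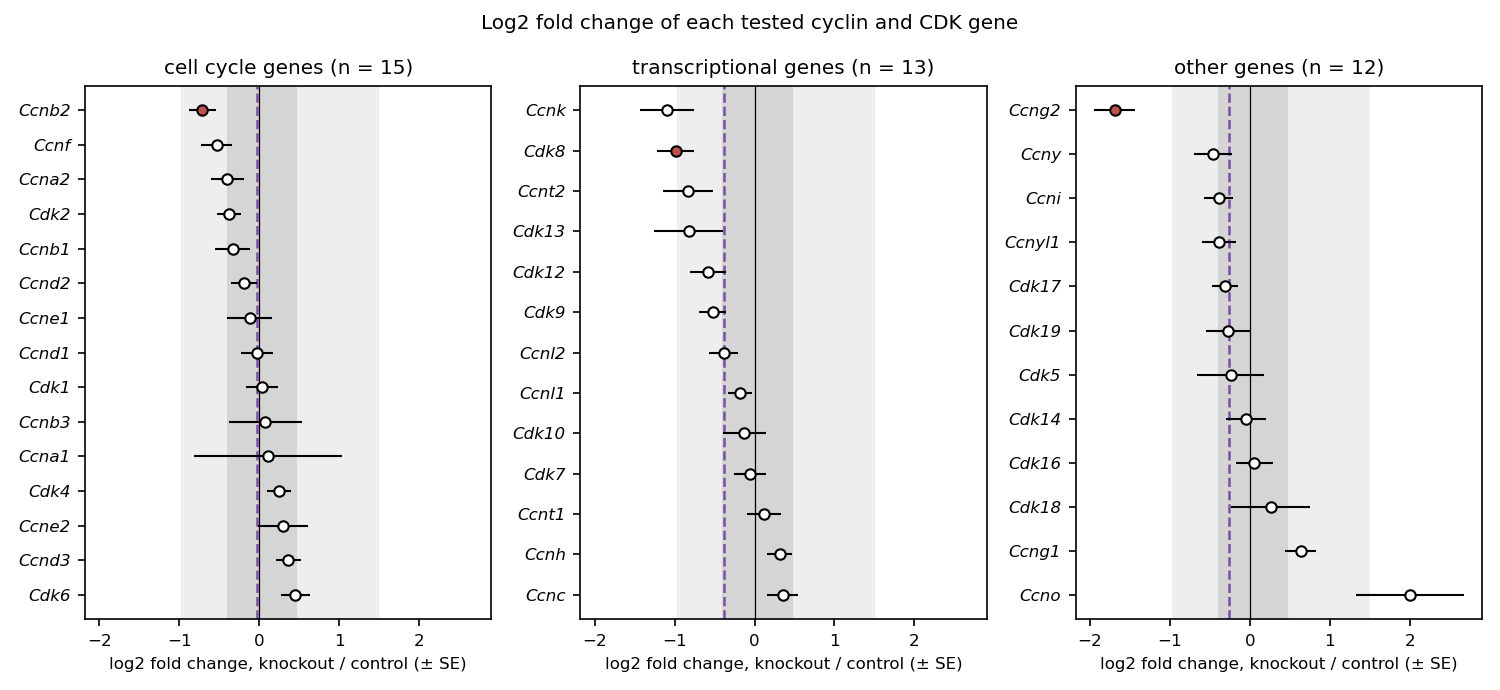
Log2 fold change of each tested member, knockout minus control, by class, with bars of 1 SE. Dark and light grey bands run between the 25th and 75th and between the 5th and 95th percentiles of all genes tested, dashed lines are class medians, and filled red points mark the 3 called members, all left of 0.

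Among the G1 members, D-type cyclins and their kinases gave no call. Ccnd2, the most abundant D-type cyclin, was at 439, 499.9 and 417 CPM in controls and 385, 396 and 407 CPM in knockouts. The groups lay side by side without overlap, yet the log2 fold change of −0.19 (95% interval −0.54 to 0.16) did not pass (edgeR adjusted p 0.511). Ccnd3 was at 53.7, 43.2 and 50.7 CPM in controls and at 62.7, 60.6 and 66.8 in knockouts (log2 fold change 0.37 ± 0.16, p 0.0410, edgeR adjusted p 0.187). Ccnd1 overlapped, at 42.5 ± 3.23 and 41.8 ± 9.79 CPM (SD, n = 3). The kinase gene Cdk4 was at 252, 271 and 294 CPM in controls and 325, 315 and 327 CPM in knockouts, without overlap. Its log2 fold change was 0.24, with an interval of −0.09 to 0.58 (edgeR adjusted p 0.360), and it became −0.02 with scaling by library size alone. Cdk6 was at 57.4 ± 9.80 and 78.5 ± 13.9 CPM (log2 fold change 0.45 ± 0.19, p 0.0330, edgeR adjusted p 0.168), and 1 knockout fell within the control range. Exons of Ccnd3, Cdk4 and Cdk6, like those of 18 of the 41 members in all, overlap a gene on the other strand. Counting by strand is not stated, so reads in the shared bases cannot be told apart from those of the partner gene. In each of these members the shared bases were a minor part of the exon length. How many reads fell there is not known.

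Members of the S phase showed small differences. Cdk2, the kinase of the E- and A-type cyclins, was at 59.1, 56.7 and 59.9 CPM in controls and 47.9, 43.5 and 44.2 CPM in knockouts. The replicates were tight and the groups apart, with a log2 fold change of −0.37 ± 0.15 (p 0.0310, edgeR adjusted p 0.164). Ccne1 (12.7 ± 3.39 and 11.7 ± 0.546 CPM) and Ccne2 (8.68 ± 1.63 and 10.7 ± 2.66 CPM) overlapped. Ccna2, the A-type cyclin of dividing somatic and germ cells, was at 130, 212 and 189 CPM in controls and 123, 117 and 164 in knockouts, with a log2 fold change of −0.40 (95% interval −0.86 to 0.06). Its edgeR adjusted p was 0.276 and its limma-voom adjusted p 0.00493. With knockouts 1 and 2 as 1 library the limma-voom adjusted p of Ccna2 was 0.256. Ccna1 had 3 to 14 reads per library, too few for a difference to be seen.

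Among the mitotic members Ccnb2 was the one called. Ccnb1 encodes cyclin B1, the main partner of CDK1, and was at 435, 490 and 566 CPM in controls and 332, 326 and 527 CPM in knockouts. Knockouts 1 and 2 lay below all controls, while knockout 3 lay among them, and the log2 fold change was −0.33 (95% interval −0.82 to 0.15, edgeR adjusted p 0.395). Without knockout 3 it was −0.60 (edgeR adjusted p 0.156). Cdk1 overlapped, at 95.2, 127 and 109 CPM in controls and 94.3, 99.1 and 145 CPM in knockouts, with a log2 fold change of 0.03 (interval −0.40 to 0.47) that became −0.19 without knockout 3. Knockout 3 was also the highest knockout for Ccna2, Ccnd1 and Cdk5. Ccnf encodes cyclin F, which has no CDK partner and directs protein degradation. It was at 58.5, 72.8 and 58.3 CPM in controls and 49.6, 47.8 and 33.8 CPM in knockouts, apart but not called (log2 fold change −0.53 ± 0.19, p 0.0190, edgeR adjusted p 0.128). Ccnb3 overlapped, at 4.45 ± 1.40 and 4.70 ± 1.94 CPM. The pseudogenes Ccnb1-ps, Ccnb2-ps and Ccnd3-ps have no row among the genes deposited, all of which had a read. They may have been counted without a read, or reads from such copies could have been assigned to the parent genes.

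Promoter stretches are shown for Ccnb2, Ccnb1, Cdk1 and Ccnf because these are known targets of one late cell cycle control, which reads CCAAT boxes beside a cell cycle homology region (CHR), and for Cdk8 as the called transcriptional member. They are RefSeq sequences on GRCm38.p6, 120 bases each ending before the first annotated exon, written 5′ to 3′ on the gene's strand. Ccnb2 is chr9:70421555-70421674, Ccnb1 chr13:100786571-100786690, Cdk1 chr10:69352939-69353058 and Ccnf chr17:24251485-24251604, all on the minus strand, and Cdk8 is chr5:146231110-146231229 on the plus strand. Capitals mark CCAAT or its reverse complement ATTGG, and the CHR letters TTTGAA. The stretches of Ccnb2 and Ccnb1 hold no CHR letters, and the CHR matches of their longer windows, described below, lie outside what is shown.
Ccnb2: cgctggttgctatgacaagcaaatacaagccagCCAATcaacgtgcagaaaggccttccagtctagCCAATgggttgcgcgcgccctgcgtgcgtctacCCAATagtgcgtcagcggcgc
Ccnb1: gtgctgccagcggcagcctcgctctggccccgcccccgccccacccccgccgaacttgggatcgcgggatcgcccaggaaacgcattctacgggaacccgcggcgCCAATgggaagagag
Cdk1: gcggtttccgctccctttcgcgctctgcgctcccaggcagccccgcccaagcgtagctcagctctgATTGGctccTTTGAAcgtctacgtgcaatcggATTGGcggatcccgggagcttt
Ccnf: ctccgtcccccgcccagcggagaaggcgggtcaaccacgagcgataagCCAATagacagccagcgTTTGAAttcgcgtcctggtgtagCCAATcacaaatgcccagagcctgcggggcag
Cdk8: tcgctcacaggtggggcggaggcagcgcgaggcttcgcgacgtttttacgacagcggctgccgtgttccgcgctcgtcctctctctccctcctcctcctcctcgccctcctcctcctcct
RefSeq promoter windows were matched by symbol for 32 of the 41 members, and those of Ccna2, Ccnd1, Ccnd2, Ccne2, Ccnh, Ccny, Cdk17, Cdk19 and Cdk5 were not. In the full window of 300 bases, from 250 before to 50 after the start, 4 sets of letters were counted on both strands. CCAAT was in 37.4% of all 32851 windows, the CHR as TTTGAA or TTTAAA in 27.6%, an E2F site as TTTCCCGC or TTTGGCGC in 1.57% and a FOXO site as GTAAACA in 3.65%. At least 2 CCAAT together with a CHR stood in 3.13% of all windows. That combination was found in 4 of the 11 matched cell cycle members (Ccnb1, Ccnb2, Cdk1 and Ccnf), in 0 of 12 transcriptional members and in 1 of 9 others (Cdk16). Ccnb2 and Cdk1 each had 3 CCAAT and 2 CHR matches, although Ccnb2 fell and Cdk1 had a log2 fold change of 0.03. The windows of Ccng2 and Cdk8 held none of these letters. The motifs and the stretches shown were chosen after the fold changes were seen, and a match describes letters, not binding.

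Of the 13 transcriptional members, all tested, 1 was called, 5 had an unadjusted p under 0.05 and all 5 were lower, 10 had a log2 fold change below 0, and the class median was −0.38. Over all genes 4.83% were called, and 12.8% were lower and 11.3% higher at an unadjusted p under 0.05, so 1 call is no result about the class. The 15 cell cycle members had 1 called, 5 with an unadjusted p under 0.05 (3 lower, 2 higher), 8 below 0 and a median of −0.02. The cell cycle median was higher by 0.36 (log2), and this difference was 0.18 to 0.45 with any 1 library left out and 0.44 with knockouts 1 and 2 as 1 library. It was 0.22 by limma-voom, and with Cdk19, the paralog of Cdk8, counted as transcriptional it was 0.31. No test was made of the classes, and their summed levels showed no such difference. Cell cycle members summed to 2039 ± 169 CPM in controls and 1804 ± 206 in knockouts, transcriptional members to 778 ± 39.8 and 709 ± 13.4, and the ratio of these sums was 2.63 ± 0.330 and 2.54 ± 0.249 (SD, n = 3).

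Within P-TEFb, which releases paused RNA polymerase II, the kinase gene Cdk9 was at 75.7, 61.6 and 72.4 CPM in controls and 54.5, 49.1 and 42.3 CPM in knockouts. The groups were apart, with a log2 fold change of −0.52 ± 0.17 (p 0.00951, edgeR adjusted p 0.0919). Its cyclin gene Ccnt2 was at 50.8, 32.4 and 25.4 CPM in controls and 26.8, 21.05 and 13.1 CPM in knockouts, which overlap. The log2 fold change of Ccnt2 was −0.83 ± 0.31 (p 0.0221, edgeR adjusted p 0.138), −0.51 without control 1. The other T-type cyclin gene, Ccnt1, overlapped at 43.1 ± 12.9 and 46.8 ± 3.13 CPM.

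Cyclin K works with CDK12 and CDK13 in elongation, and control 1 was the highest library for Ccnk and Cdk13. Ccnk was at 27.3, 12.2 and 13.95 CPM in controls and 7.34, 8.07 and 9.54 CPM in knockouts, with no overlap (log2 fold change −1.10 ± 0.34, p 0.00815, edgeR adjusted p 0.0870). DESeq2 (0.0378) and limma-voom (0.0233) called it, and without control 1 the edgeR log2 fold change was −0.66. With knockouts 1 and 2 as 1 library neither DESeq2 nor limma-voom called Ccnk. Cdk12 was at 52.9, 50.8 and 32.5 CPM in controls and 31.1, 34.8 and 24.9 CPM in knockouts, with a log2 fold change of −0.58 ± 0.23 (p 0.0269, edgeR adjusted p 0.152). Its lowest control lay within the knockout range. Cdk13 was at 40.98 CPM in control 1 and 10.9 to 15.1 in the other libraries, so its log2 fold change of −0.82 became −0.03 without that control.

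Ccnh and Cdk7 encode the kinase of TFIIH. Ccnh was at 176, 196 and 215 CPM in controls and 233, 228 and 269 CPM in knockouts, without overlap (log2 fold change 0.31, interval −0.03 to 0.66, edgeR adjusted p 0.251). Its kinase gene Cdk7 overlapped at 83.9 ± 23.1 and 80.5 ± 3.04 CPM, and Mnat1, another subunit of that kinase, was at 46.6 ± 5.44 and 42.2 ± 1.26 CPM (edgeR adjusted p 0.640). Ccnc, the cyclin of CDK8, overlapped at 34.7 ± 2.79 and 44.3 ± 8.36 CPM (edgeR adjusted p 0.298). Among members linked to splicing, Ccnl1 was at 102 ± 13.8 and 89.9 ± 2.89 CPM and Ccnl2 at 57.5 ± 11.0 and 44.0 ± 1.56 CPM, both overlapping. Cdk10 overlapped at 11.6 ± 1.45 and 10.6 ± 1.86 CPM.

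Of the 13 other members 12 were tested, and Ccng2 was the one called. Ccno, known for its part in the making of multiciliated cells, had 9, 15 and 6 reads in controls and 55, 39 and 26 in knockouts. Every knockout was higher, with a log2 fold change of 2.00 ± 0.67 that edgeR did not call (adjusted p 0.106) and DESeq2 did (0.0455). With knockouts 1 and 2 as 1 library DESeq2 no longer called Ccno. Ccni was at 156 ± 36.4 and 119 ± 6.56 CPM and Cdk17, a kinase of the PCTAIRE family, at 63.7 ± 6.12 and 51.3 ± 5.67 CPM, both apart but with edgeR adjusted p of 0.222 and 0.274. Ccny, Ccnyl1, Cdk5, Cdk14, Cdk16, Cdk18 and Cdk19 overlapped, with log2 fold changes from −0.46 (Ccny) to 0.26 (Cdk18). Cdk5 split within both groups, at 11.3, 28.0 and 27.3 CPM in controls and 12.6, 12.6 and 31.2 CPM in knockouts.

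Ratios of partners or paralogs within a library, computed from CPM per kb, do not depend on the scaling between libraries. The pairs were set after the fold changes were seen, so they are descriptions with no test. Ccnb2 over Ccnb1 was 1.23, 1.31 and 1.33 in controls and 1.12, 1.19 and 0.792 in knockouts, and Ccnb1 over Cdk1 was 5.35, 4.53 and 6.07 against 4.12, 3.85 and 4.24. The balance of mitotic cyclin to kinase RNA was thus lower in each knockout than in any control. Ccnd3 over Ccnd2 was 0.131, 0.0926 and 0.130 in controls and 0.175, 0.164 and 0.176 in knockouts, while Ccnd2 over Cdk4 was 0.601, 0.638 and 0.490 against 0.409, 0.434 and 0.430. Ccnc over Cdk8 was 0.767, 1.45 and 1.48 in controls and 3.54, 3.30 and 2.05 in knockouts. Cdk19 over Cdk8, the paralog pair of Mediator, overlapped, since knockout 3 (0.550) lay among the controls (0.479 to 0.593). Ccng2 over Ccng1 was 0.493, 0.247 and 0.421 in controls and 0.0668, 0.0673 and 0.0916 in knockouts, the widest gap of the pairs shown. Ccnb2 over Cdk1 was lower, and Ccnt1 over Cdk9 higher, in every knockout. Ccna2 over Ccnb1, Cdk6 over Cdk4, Cdk2 over Cdk1, Ccnh over Cdk7, Ccnk over Cdk12 and Ccnl2 over Ccnl1 overlapped. So did Ccnt2 over Ccnt1, Ccna2 over Cdk2, Ccnd1 over Ccnd2, Ccne1 over Ccne2, Cdk13 over Cdk12, Ccnyl1 over Ccny and Cdk17 over Cdk16. More of the pairs thus overlapped than lay apart.

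**Figure D3:**
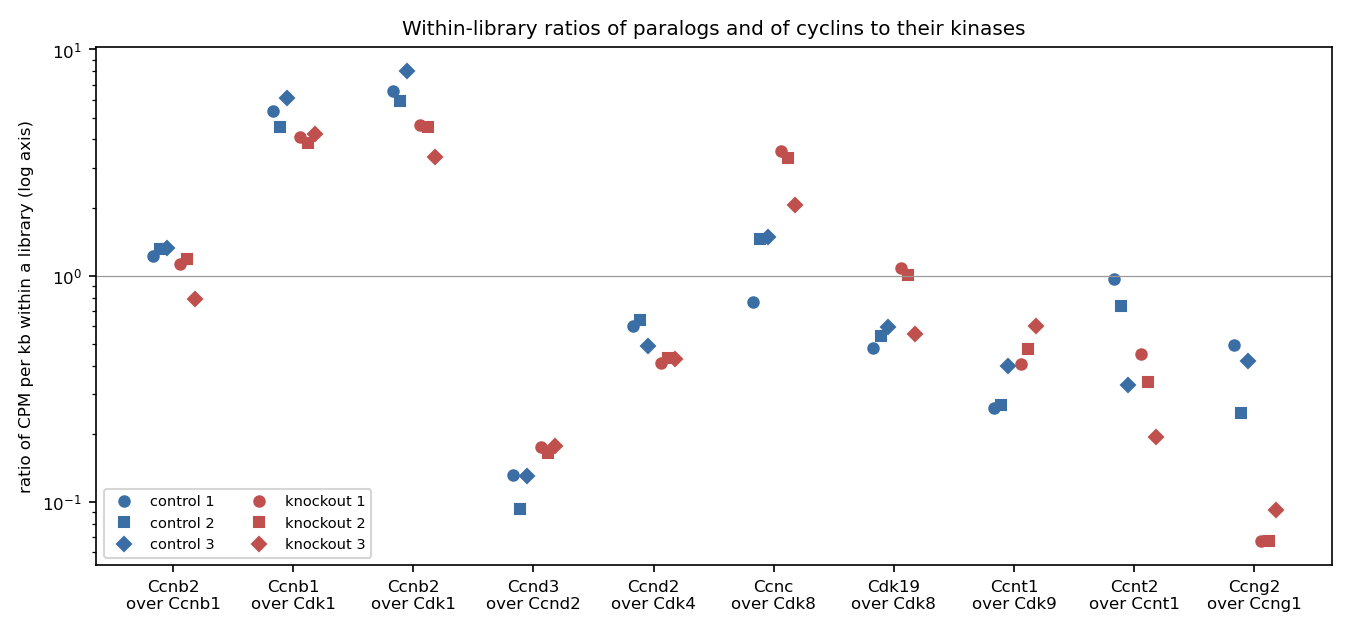
Within-library ratios of 10 of the 22 pairs, chosen after their values were seen, from CPM per kb on a log axis. Points are the 3 control and 3 knockout libraries; Ccng2 over Ccng1 shows the widest gap, and Cdk19 over Cdk8 and Ccnt2 over Ccnt1 overlap.

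Lists of regulators were counted in the same fit, and with knockouts 1 and 2 as 1 library edgeR called 1 gene in all, so nearly every call on these lists is lost there. Their counts are to be read against the 4.83% of all genes called (2.8% lower), and the shares for cyclin degradation (7.69%) and for RB and E2F (5.26%) are near it. Of 8 CDK inhibitor genes 1 was called, and the median of the 8 was 0.21. Cdkn1b, which encodes p27, fell from 15.4 ± 3.09 to 6.24 ± 0.610 CPM (log2 fold change −1.30, edgeR adjusted p 0.0337). Cdkn1a (57.5 ± 3.15 and 74.4 ± 4.19 CPM) and Cdkn1c (14.5 ± 3.98 and 22.9 ± 1.61 CPM) went the other way. Both were higher in every knockout but not called (edgeR adjusted p 0.151 and 0.144), and the other 5 inhibitor genes overlapped. Of 16 genes for CDK phosphorylation and CKS proteins 2 fell, with a median of −0.18. They were Wee1, the inhibitory kinase of CDK1 (110 ± 24.9 to 56.6 ± 5.97 CPM, edgeR adjusted p 0.0255), and Cdc25c, the phosphatase that opposes it (16.5 ± 4.83 to 5.57 ± 1.53 CPM, edgeR adjusted p 0.0320). An activator and an inhibitor of CDK1 were thus both lower. Of 26 genes of cyclin degradation 2 fell, Usp37 (120 ± 8.0 to 73.0 ± 2.54 CPM, edgeR adjusted p 0.0244) and the anaphase-promoting complex gene Anapc1 (159 ± 19.7 to 98.7 ± 6.29 CPM, edgeR adjusted p 0.0339), with a median of −0.15. Of 19 RB and E2F pathway genes 1 fell, Foxm1, a transcription factor known to act on mitotic cyclin genes (25.8 ± 7.11 to 8.65 ± 1.79 CPM, edgeR adjusted p 0.0204), with a median of −0.39.

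Of 35 tested partners of the transcriptional kinases 5 were called (14.3%), 4 of which fell, beside 4.83% of all genes (2.8% lower, 2.03% higher), and the median of the list was −0.26. The elongation factor gene Eaf1 fell from 36.7 ± 3.51 to 18.9 ± 0.610 CPM (edgeR adjusted p 0.0244). Med13l, of the Mediator kinase module that holds CDK8, fell from 63.3 ± 12.9 to 34.7 ± 3.27 CPM (edgeR adjusted p 0.0328). Ercc3, a TFIIH helicase gene named after its value was seen, fell from 62.4 ± 2.59 to 40.9 ± 2.47 CPM (edgeR adjusted p 0.0481). Hexim2, an inhibitor of P-TEFb, rose from 8.29 ± 1.55 to 18.6 ± 4.32 CPM (edgeR adjusted p 0.0428). Its paralog Hexim1 went the other way, from 18.9 ± 4.84 to 10.5 ± 1.37 CPM, with every knockout below every control. Hexim1 missed the thresholds of edgeR (adjusted p 0.0922) and DESeq2 (0.0563) and passed that of limma-voom (0.0453). Of 18 tested cyclin and CDK relatives outside the member list edgeR called 0 (5 at an unadjusted p under 0.05), DESeq2 2 and limma-voom 5, with a median of 0.01.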

How the data were processed

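Gene counts of 6 libraries, 3 control and 3 knockout, were used as deposited by the authors. The submitters' processing notes name Trimmomatic 0.39, STAR 2.7.5c, StringTie 2.1.7 and the build mm10, and the step that made the counts is not given in the sources used here. Identifiers were named from GENCODE M21 (22562 of 22579 matched).

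Genes were kept by filterByExpr, libraries were scaled by TMM, and genotype was tested with the edgeR 4.0.16 quasi-likelihood F test in R 4.3.3 (robust, two-sided), with Benjamini-Hochberg adjustment over 14766 genes and calls at an adjusted p under 0.05. CPM use TMM library sizes. DESeq2 1.42.0 and limma-voom 3.58.1 with quality weights were alternatives. An exact permutation test of 3 against 3 cannot go below 0.1 and was not used. The fits were tested on simulated data: the share of false calls of DESeq2 exceeded its nominal level there, and the pass limit was eased for DESeq2 after that was seen. No columns of other samples were present.

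All 41 members are accounted for, with full statistics for called members and those with an unadjusted p under 0.05; from each pathway list up to 4 called genes with the smallest p are named, except 1 gene that is not reported here. Members and lists were chosen with earlier results of these data known.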

Additional observations from a re-analysis of the deposited data

How the results depend on the processing

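Over the 40 tested members and 18 alternatives, 653 of 720 log2 fold changes kept their direction and side of the threshold, 17 lost the call, 15 gained one and 35 changed sign, all of the last in members that were not called. The difference between class medians moved by less than the spread between libraries (pooled SD 0.209) under every alternative. That spread is large beside the difference itself, so this is a loose limit. Genes called, 713 in all, were 1378 with library size alone, 1641 by DESeq2, 2765 by limma-voom, 1, 469 and 408 by edgeR, DESeq2 and limma-voom with knockouts 1 and 2 as 1 library, and 3 to 839 with 1 library left out. Members called were 7 with library size alone (3 cell cycle, 3 transcriptional), 6 by DESeq2 (2 transcriptional, 3 other), 10 by limma-voom (4 cell cycle, 2 transcriptional, 4 other), 0 in each class by edgeR with the pair as 1 library, and 0 to 3 with 1 library left out (0 to 1 in each class). Among transcriptional members limma-voom with the pair as 1 library called 0, as did removal of the length and GC trend, an alternative added with the DESeq2 and limma-voom fits of that pair after the data were seen.

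With the replicate number as a block, edgeR called 683 genes and 2 transcriptional members, adding Ccnt2 (adjusted p 0.0493). Deviations of libraries with the same number did not correlate (−0.00423, 0.00884 and 0.00648). Knockouts 1 and 2 were nearly alike, so these correlations cannot decide whether the numbers pair the samples.

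Sign changes with library size alone were Ccna1 −0.15, Ccnb3 −0.22, Ccnt1 −0.16, Cdk1 −0.22, Cdk16 −0.22, Cdk18 −0.043 and Cdk4 −0.018. By limma-voom they were Ccnb3 −0.063, Cdk1 −0.23, Cdk14 0.16 and Cdk16 −0.14, and after removal of that trend Ccna1 −0.23, Ccnd1 0.033 and Cdk14 0.17. With the pair as 1 library they were Ccnd1 0.075 by edgeR, 0.074 by DESeq2 and 0.090 by limma-voom, and Cdk14 0.10 by limma-voom. With 1 library left out the ranges were −0.36 to 0.47 for Ccna1, −0.32 to 0.25 for Ccnb3, −0.24 to 0.085 for Ccnd1, −0.31 to 0.077 for Ccne1, −0.036 to 0.38 for Ccnt1, −0.19 to 0.16 for Cdk1, −0.23 to 0.077 for Cdk14, −0.19 to 0.17 for Cdk16, −0.067 to 0.69 for Cdk18 and −0.26 to 0.14 for Cdk7. The cause of these changes was not tested. Low counts limit Ccna1, Ccnj and Ccno.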
